A study of Homo sapiens with 8 samples.

Results

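The promoters of TMEM63C, CHST14 and AMDHD2 were listed as open chromatin in the wild-type (WT) libraries and in no ZBTB48 knockout (KO) library. These 3 genes, of 19970 protein-coding genes with an annotated start site, were chosen because of that pattern, so the WT and KO peak calls at their start sites are given here as a description and without a test. All peaks within each gene body and 10 kb on either side were collected from the 8 deposited peak lists. This gave 76 of the 195897 peaks on chromosomes 1 to 22 and X, with 37 at TMEM63C, 4 at CHST14 and 35 at AMDHD2.

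The libraries came from formaldehyde-assisted isolation of regulatory elements with sequencing (FAIRE-seq) in U2OS, a human osteosarcoma cell line. The 4 groups were untreated WT, WT with interferon gamma (IFNγ), untreated ZBTB48 KO, and KO with IFNγ. Each group held 2 libraries, one from each of 2 clones: WT_4 and WT_5 for WT, KO_C5 and KO_D2 for KO. IFNγ was given at 250 U/ml, for 24 hours according to the sample labels, while the study's text also names a longer exposure, so the duration is uncertain. Every line was 1 clone, so clone and genotype rest on 2 clones a side, and the untreated and IFNγ library of a clone are not independent samples of a genotype.

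In FAIRE, sonicated crosslinked chromatin is extracted with phenol, and DNA that carries few nucleosomes stays in the aqueous phase and is enriched among the reads. Active promoters usually show such a nucleosome-poor stretch at the transcription start site. ZBTB48, also called TZAP, is a zinc finger protein that binds telomeric repeats and the promoters of a small number of genes. TMEM63C belongs to the TMEM63 family of membrane proteins related to osmosensitive and mechanically gated cation channels. CHST14 encodes a Golgi sulfotransferase that adds sulfate to dermatan sulfate chains. AMDHD2 encodes the deacetylase that acts on N-acetylglucosamine phosphate in amino sugar metabolism.

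The 3 start sites lie on the plus strand of GRCh38. The TMEM63C peak region, joined over the 4 WT libraries, was chr14:77181387-77182412, around the main start site (MANE Select) at 77181798, and its strongest summit fell in an untranslated exon. TMEM63C has 8 annotated start sites over a gene of 142928 bp, and this peak sat inside the gene, far from the first start site at 77116568. The CHST14 region was chr15:40470633-40471560, around the start site at 40470984, at the head of a gene of 2175 bp. The AMDHD2 region was chr16:2520076-2520517, around the start site at 2520371, and a cluster of 12 annotated transcripts begins there. At CHST14 and AMDHD2 the strongest summit also lay in an untranslated exon.

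The genomic stretches directly before the first annotated start site of each cluster are printed below because they are the DNA that the WT peaks cover or adjoin, outside any exon. Each is read 5′ to 3′ on the plus strand of GRCh38, and capitals mark matches to the motifs described after them, on either strand. They are chr14:77181373-77181622, chr15:40470734-40470983 and chr16:2520219-2520356. The AMDHD2 stretch is shorter, at 138 bases, because ATP6V0C ends just before it.
TMEM63C: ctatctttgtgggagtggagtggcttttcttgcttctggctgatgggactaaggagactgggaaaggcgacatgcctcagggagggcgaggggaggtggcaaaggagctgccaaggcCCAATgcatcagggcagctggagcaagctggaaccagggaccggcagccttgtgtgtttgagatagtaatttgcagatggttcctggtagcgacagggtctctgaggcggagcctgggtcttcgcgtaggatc
CHST14: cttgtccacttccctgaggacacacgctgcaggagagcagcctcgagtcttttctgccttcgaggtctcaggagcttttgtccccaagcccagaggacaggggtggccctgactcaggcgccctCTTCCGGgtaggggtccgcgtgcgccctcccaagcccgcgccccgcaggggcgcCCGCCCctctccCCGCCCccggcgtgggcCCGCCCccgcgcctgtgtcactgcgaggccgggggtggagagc
AMDHD2: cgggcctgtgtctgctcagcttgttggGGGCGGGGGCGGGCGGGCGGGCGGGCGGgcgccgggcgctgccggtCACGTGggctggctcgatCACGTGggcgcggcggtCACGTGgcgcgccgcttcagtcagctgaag

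The TMEM63C stretch held 1 CCAAT box, a site of NF-Y, 133 bases before the first start site of its cluster, and no GC box. The CHST14 stretch held 3 GC boxes, the GGGCGG element bound by SP and KLF factors, all read on the minus strand as CCGCCC and 72, 60 and 43 bases before the start site. It also held 1 ETS element, CCGGAAG, 126 bases before that site on the minus strand. The AMDHD2 stretch held 6 adjoining or overlapping GC boxes between 111 and 89 bases before its first start site. It also held 3 E-boxes, CACGTG, the core bound by basic helix-loop-helix factors such as USF, 65, 47 and 30 bases before that site. The E-box was searched for only after this sequence had been read.

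For a comparison with other promoters, the RefSeq promoter table of GRCh38.p14 was searched, with 250 bases before and 50 after each start site. All 3 genes matched by symbol among 35116 promoters. The telomeric hexamer TTAGGG, the repeat to which ZBTB48 binds, had no match on either strand in any of the 3 promoters, and 9.05% of all promoters held one. GTGAGT, the same letters in another order, also had no match, against 12.8% of all promoters. The TATA box TATAAA had none, against 11.5%. The STAT site TTCNNNGAA had none, against 7.66%. The NRF1 site GCATGCGC had none, against 3.05%. GGGCGG was present 1 time at TMEM63C, 5 times at CHST14 and 7 times at AMDHD2, and in 44.95% of all promoters. It was more frequent in open regions. Of 300-bp windows at summits of regions found in all 8 libraries, 82.1% held it. The share was 69.2% for the 107 regions with a peak in all 4 WT and no KO library. CCAAT was present 1 time at AMDHD2 and in 34.6% of all, and CCGGAAG 1 time at CHST14 and in 10.3% of all. CACGTG was present 4 times at AMDHD2 and in 7.26% of all promoters. The wider peak regions, of 1026, 928 and 442 bp, also held no TTAGGG. The absence of these letters describes these windows only. The study also reports that ZBTB48 binds a CIITA promoter at sites where it contacts GGG and not the whole hexamer. Missing TTAGGG therefore does not tell whether ZBTB48 binds a promoter.

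The 3 promoters differed in base composition. In the RefSeq promoters the GC content was 64.3% at TMEM63C, 75.0% at CHST14 and 71.3% at AMDHD2, with a median of 58.7% over all promoters. The number of CpG dinucleotides was 13, 32 and 36, with a median of 14. In 300-bp windows at the median WT summit, the GC content was 68.0%, 81.7% and 76.0%. These values exceeded those of 41.0%, 97.7% and 82.4% of the 11550 such windows at regions found in all 8 libraries. TMEM63C thus had the lowest CpG count of the 3, with 18 in its summit window, above 7.55% of the same windows, while AMDHD2 had 47, above 94.7%.

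At TMEM63C, the peak was placed by its percentile within the same library's list. This is its rank from the weakest −log10 p upward, as a share of all listed peaks, with tied peaks given their average rank. The percentile was 44.6 in WT_4, 42.2 in WT_4 with IFNγ, 56.0 in WT_5 and 73.2 in WT_5 with IFNγ. Both WT_5 libraries lay above both WT_4 libraries in percentile, but the WT_5 lists were the longer ones. Counted from the strongest peak of each list, the peak ranked 12026, 10928, 13004 and 10075 in the same order. By that rank untreated WT_5 came last and the clones were not ordered. The fold enrichment at the summit was 10.9, 10.3, 10.9 and 21.3 in the same order, and the width was 343, 352, 434 and 1026 bp. The WT_5 library with IFNγ therefore stood above the other 3, which lay close together. Its summit pileup, the number of fragments covering the summit, was 57, against 26, 23 and 33. The summits lay 43 bp after and 34, 112 and 37 bp before the main start site, and the 4 peaks shared a core of 300 bp. No KO library listed a peak there.

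At CHST14, the percentile was 56.6 in WT_4, 42.1 in WT_4 with IFNγ, 53.2 in WT_5 and 55.5 in WT_5 with IFNγ. The library of WT_4 with IFNγ was the lowest, and the other 3 lay within a few percentiles of each other. Fold enrichments were 20.5, 11.7, 12.4 and 13.6, widths 772, 273, 251 and 830 bp, and summit pileups 33, 18, 24 and 23 fragments. The summits were the most tightly placed of the 3 genes, 13 and 23 bp after, 1 bp after and 1 bp before the start site in the same order of libraries. The KO libraries listed no peak at the start site, nor anywhere within 10 kb of the gene.

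At AMDHD2, the percentile was 54.5 in WT_4, 57.4 in WT_4 with IFNγ, 39.7 in WT_5 and 47.9 in WT_5 with IFNγ. Here both WT_4 libraries lay above both WT_5 libraries, the reverse of the percentile order at TMEM63C. By rank from the strongest peak the clones were not ordered at TMEM63C, so the reversal is one of percentiles only. Fold enrichments were 17.9, 17.4, 8.37 and 10.3, widths 291, 342, 442 and 392 bp, and summit pileups 33, 31, 19 and 20 fragments. The summits lay 16, 11, 32 and 64 bp after the main start site. No KO library listed a peak there.

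**Figure D1:**
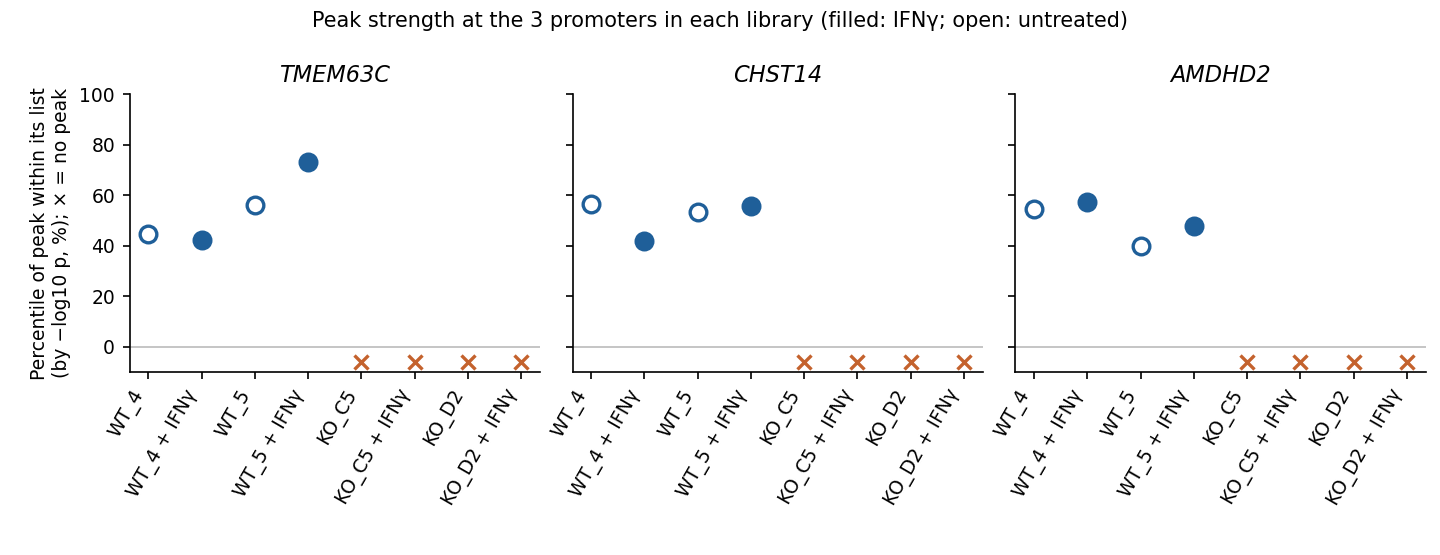
Within-list percentile of −log10 p (vertical axis, %) of the peak at each of the 3 promoters in the 8 libraries (horizontal axis), with open circles for untreated and filled circles for IFNγ libraries and a cross where the list has no peak. The WT points lie between 39.7 and 73.2, and all 12 KO positions are crosses.

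Over the 4 WT libraries the mean percentile was 54.0 ± 14.1 (SD, n = 4) at TMEM63C, 51.9 ± 6.69 at CHST14 and 49.9 ± 7.87 at AMDHD2. The order of the means is not separated from this spread. Of all 52105 regions joined over the lists, 107 had a peak in all 4 WT and no KO library, which is 0.205%. Of 14428 protein-coding genes with a promoter peak in any library, 47 had this pattern at their own start sites, which is 0.326%, and 10217, or 70.8%, had a peak in all 8. As the 3 genes were picked from these 47, nothing is read from their count. The WT-only region count depends on which libraries are required. It was 280 without the IFNγ library of WT_4, 243 without untreated WT_5, 201 without the IFNγ library of KO_C5, 166 without untreated WT_4 and 162 without untreated KO_C5.

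The lists differed in length, from 16730 peaks in untreated KO_D2 to 37533 in WT_5 with IFNγ, so a weak peak had more room to be listed in some libraries than in others. When each list was cut to its 16730 strongest peaks, TMEM63C and CHST14 kept their peak in all 4 WT libraries. AMDHD2 kept it in 2 of 4, losing both WT_5 libraries, where it ranked 17833 and 19541 by −log10 p. At CHST14 the peak of WT_5 with IFNγ ranked 16651, just inside that length. The number of WT-only regions fell from 107 to 26.

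The entry limits of the KO lists were taken from the fold and −log10 p of the listed peaks, which together return the summit pileup and the local background that MACS2 used. The lowest local background of a library, taken as its library background, was between 0.621 and 1.08 fragments in all 8. At that background a KO list took in peaks from 5 or 6 fragments. At the local background of the nearest listed KO peak, 11 to 16 fragments were needed for TMEM63C, 8 to 10 for CHST14 and 8 to 11 for AMDHD2. At the 95th percentile of local background over each KO list, 12 to 16 were needed. The WT summits held 18 to 57 fragments, but these belong to the peaks that chose the genes and are not scaled to library depth, which is unknown, so nothing is read from the 2 sets of values. The local background of the KO libraries at the 3 start sites themselves was not known, since it is given only where a peak is listed.

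**Figure D2:**
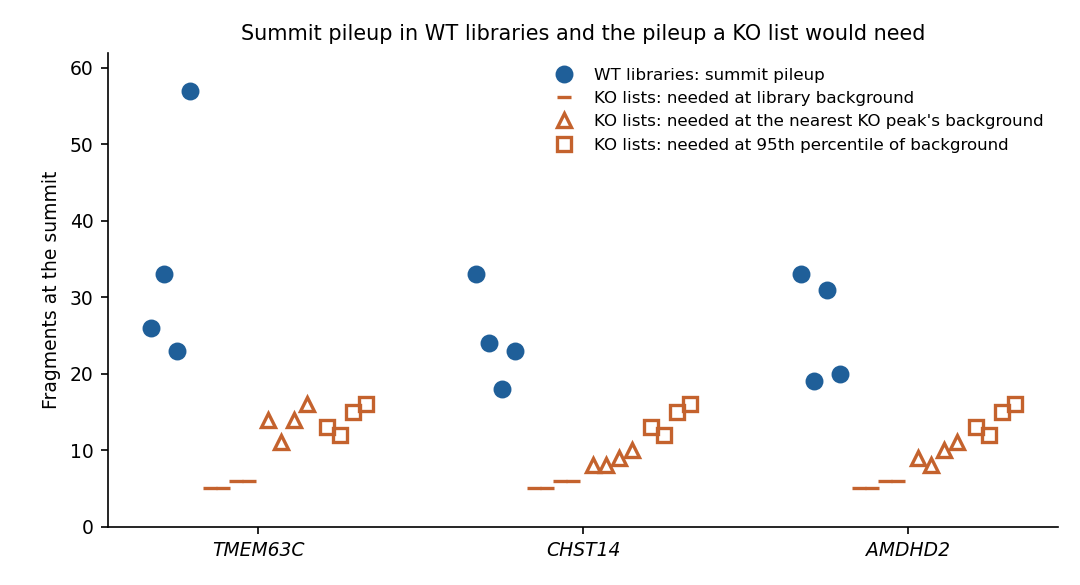
Fragments at the summit (vertical axis) for the 3 genes, showing the summit pileup of each WT library (filled circles) and the smallest pileup that each KO list would have taken in at its library background (dashes), at the background of the nearest KO peak (triangles) and at the 95th percentile of its local backgrounds (squares). The WT values span 18 to 57 and the KO limits 5 to 16, with no scaling between libraries, and the KO background at the start sites themselves is not known.

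The WT peaks at the 3 genes differed in their own local background. It was at the library background at CHST14, 1.35 to 1.37 times that level at AMDHD2, and 2.07 to 2.26 times at TMEM63C. Local background also differed by genotype over the genome. Its median over regions found in all 8 libraries was 1.64 to 1.73 times the library background in the WT libraries and 2.99 to 3.10 times in the KO libraries. A higher local background lowers the fold and the −log10 p of a peak of the same pileup. The part of this difference in the missing KO peaks was not tested.

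The rest of the TMEM63C locus was not empty in KO. The locus held 11 regions, of which 5 had a peak in at least 1 KO library and 6 in none. No region there had a peak in all 8 libraries. Of all 52105 regions, 11551 had one in all 8. With no KO peak, 14940 had a peak in 1 WT library, 2818 in 2, 406 in 3 and 107 in 4. Of the 6, the promoter was the one found in all 4 WT libraries, and the other 5 were found in 1 or 2. An intronic site 56674 bp before the main start site was listed in all 4 WT libraries, with percentiles of 21.9 to 40.7, and in KO_D2 with IFNγ at 17.9. A site 42012 bp before it was listed in 3 WT and 3 KO libraries, with percentiles of 48.9 to 60.6 and 34.3 to 50.9. A site 47870 bp before it, in a coding exon of ZDHHC22, was listed in 3 WT libraries at 36.0 to 61.98 and in both KO libraries with IFNγ, at 16.7 and 32.3.

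An intronic TMEM63C site 23471 bp before the main start site was listed in all 4 IFNγ libraries and in 1 untreated library. Its percentile was 37.5 in WT_4, 70.2 in WT_5, 47.3 in KO_C5 and 42.9 in KO_D2 with IFNγ, and 38.2 in untreated WT_5. The KO lists with IFNγ held 27457 and 24727 peaks and the untreated KO lists 19255 and 16730, so in both KO clones the list with the peak was the longer one. In WT_4 the list with IFNγ, where the site was listed, held 18913 peaks and the untreated list, where it was not, 21715. The part of list length was not tested. The site was 1 of 11 regions of this locus, and the share of all regions with such calls was not counted. Nothing about IFNγ is read from it. Over the whole TMEM63C locus the untreated KO libraries had 1 peak each and the IFNγ KO libraries 4 each, against 5 to 10 in the WT libraries.

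At the TMEM63C sites other than the promoter, the summit pileups of the 10 KO peaks, 15 to 47 fragments, lay within the range of the 23 WT peaks, 6 to 50. Their folds were lower, with a median of 6.21 in KO and 9.28 in WT. Local over library background there was 4.37 to 6.03 for the KO peaks and 1.04 to 2.81 for the WT peaks, with no overlap. At the site 23471 bp upstream, KO_C5 with IFNγ had a pileup of 45 and a fold of 8.16, and KO_D2 with IFNγ 41 and 6.16. In WT, pileup and fold were 50 and 19.2 in WT_5 with IFNγ, 20 and 9.28 in WT_4 with IFNγ, and 22 and 7.17 in untreated WT_5. Pileups are not scaled to library depth, so nothing is read from their comparison between libraries. The genome-wide medians of local background, given above, were also apart between genotypes. The share of regions without overlap was not counted.

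**Figure D3:**
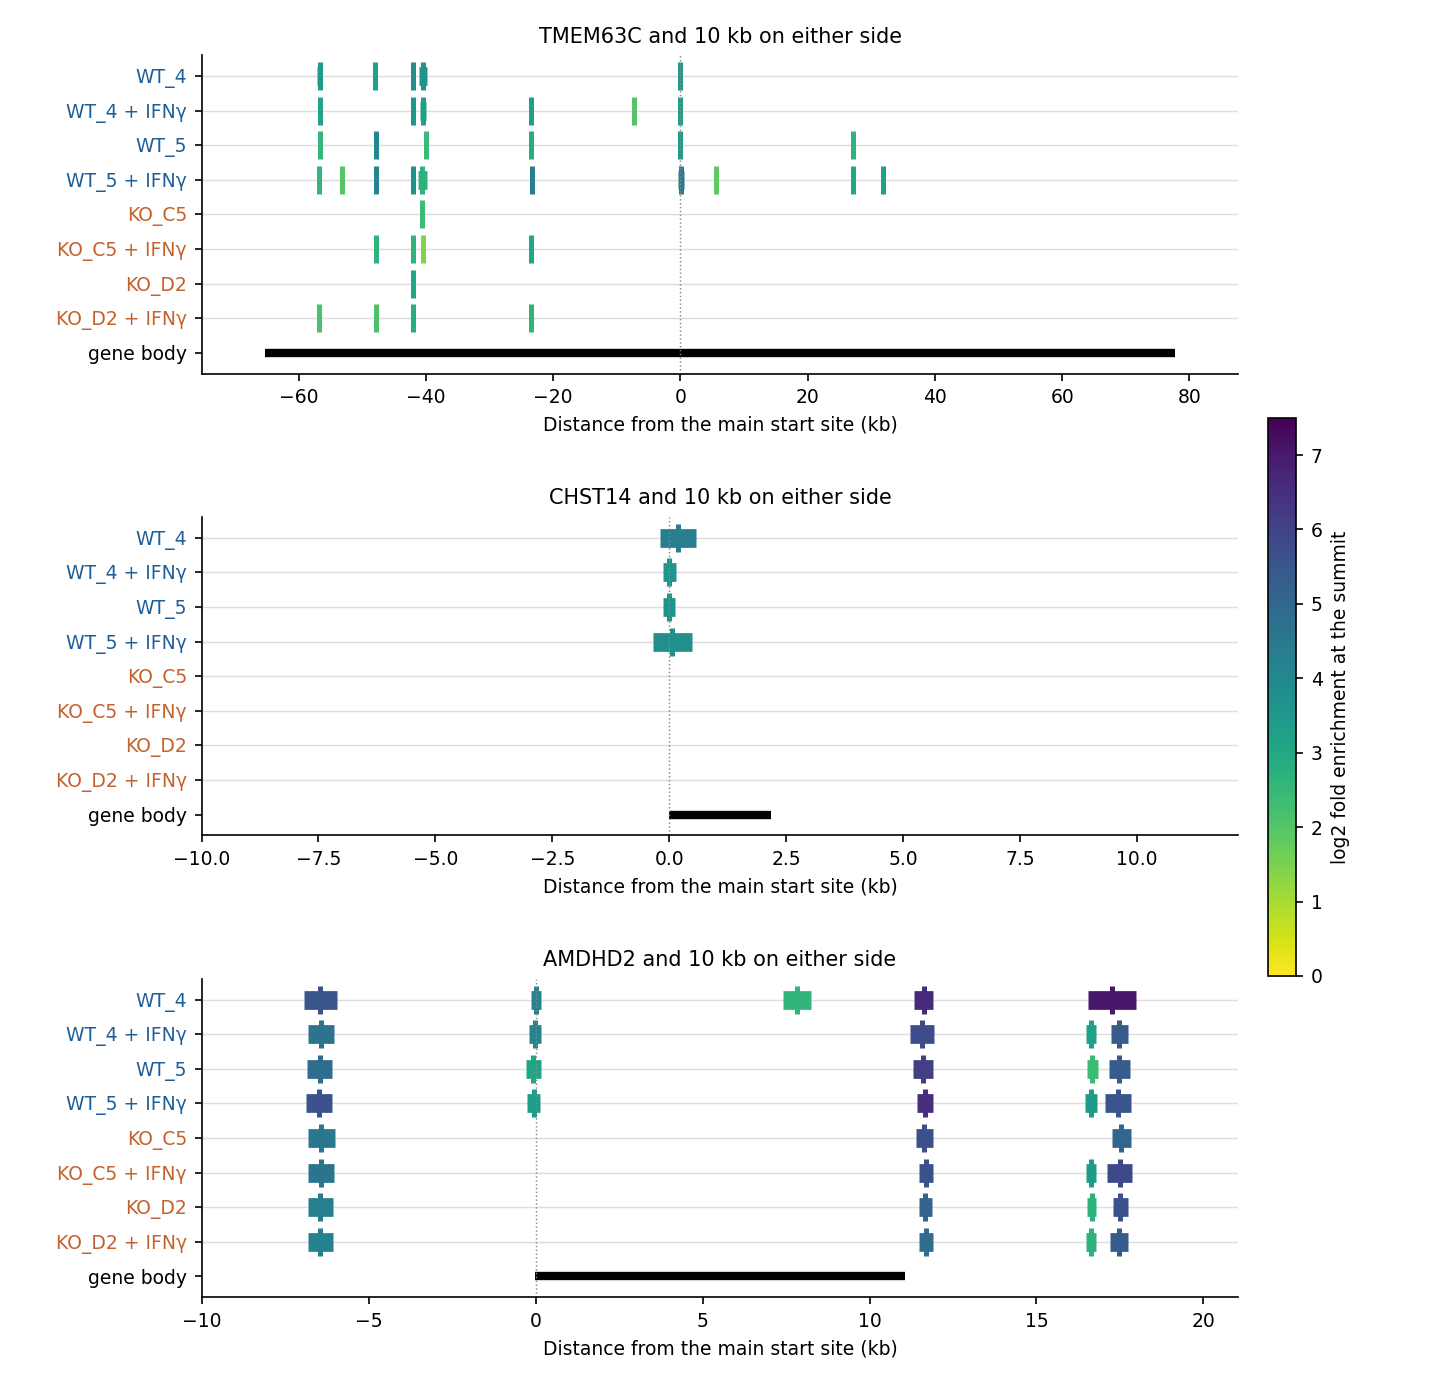
Peaks of the 8 libraries (rows) along each gene and 10 kb on either side, by distance from the main start site (horizontal axis, kb), coloured by log2 fold enrichment, with bars for peaks to scale, a tick at the middle of each so that narrow ones show, and the gene body in black. At distance 0 only WT rows carry a peak, while the KO rows carry peaks at 5 other TMEM63C sites and at 3 other AMDHD2 regions, and none at CHST14.

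ZDHHC22, a member of the palmitoyltransferase family, is a neighbour read from the minus strand inside the TMEM63C locus. Its promoter, taken as 500 bp on either side of any start site, held a peak in part of the KO libraries. It had a peak in all 4 WT libraries, at percentiles of 45.2 in WT_4, 39.4 in WT_4 with IFNγ, 17.9 in WT_5 and 30.6 in WT_5 with IFNγ. Of the KO libraries only those of KO_C5 listed one, at 26.3 untreated and 0.284 with IFNγ. From the nearest ZDHHC22 start site, negative meaning before it, these KO_C5 summits lay at −519 and 340 bp. The WT summits lay at −18 in WT_4, 515 in WT_4 with IFNγ, 23 in WT_5 and 403 in WT_5 with IFNγ. Neither KO_C5 peak overlapped that of untreated WT_5, while both lay inside the wider peaks of the other WT libraries. The pileups overlapped, with 13 to 24 fragments in WT and 27 and 15 in KO. Local over library background was 1.55 to 2.03 for the WT peaks, and 6.03 and 5.48 for the KO peaks. No peak lay at another protein-coding start site of this locus.

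At CHST14, the only other protein-coding start site within 10 kb was an internal one of BAHD1, a heterochromatin protein gene, and no library had a peak there. The nearest upstream KO peaks lay 29522 to 29943 bp away. The nearest upstream start site with a peak in all 4 KO libraries, named after its values were seen, was the main one of BAHD1, at 30031 bp. The BAHD1 promoter lay between the 91.9 and 96.9 percentiles in WT and between 88.9 and 94.96 in KO. At TMEM63C the nearest such promoters on either side were those of CIPC, 83432 bp upstream, and POMT2, 138542 bp downstream.

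The AMDHD2 locus held 5 regions, of which 3 had a peak in all 8 libraries, against 11551 of all 52105 regions. The promoter was in the 4 WT libraries, and a site 7512 bp inside the gene was listed in untreated WT_4 alone, at 20.4. Away from the promoter, the 16 WT peaks had folds of 5.21 to 130, with a median of 44.3, and the 15 KO peaks 6.27 to 57.4, with a median of 29.2. Their summit pileups were 10 to 278 and 16 to 186 fragments. The AMDHD2 promoter peaks, with 19 to 33 fragments, were thus far smaller than the typical peak around them, whose median was 94.5 fragments in WT.

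The AMDHD2 promoter lay between promoters that stayed open in KO. Those of ATP6V0C, the proton channel subunit of the vacuolar ATPase, and of PDPK1, the kinase that activates AKT, had a peak in all 8 libraries. So did the window of CEMP1, a cementum protein gene. The CEMP1 peak had its summit 38 bp before the start of the microRNA gene MIR3178, which was named for this reason after its position was seen. The ATP6V0C peaks also cover the start of the readthrough gene ENSG00000259784 and count once. The ATP6V0C start site lies 6077 bp and the CEMP1 start site 11037 bp from that of AMDHD2.

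At ATP6V0C, the percentile was 79.4 in WT_4, 70.5 in WT_4 with IFNγ, 80.4 in WT_5 and 87.3 in WT_5 with IFNγ. In KO it was 71.1 in KO_C5, 77.0 in KO_C5 with IFNγ, 65.3 in KO_D2 and 77.3 in KO_D2 with IFNγ. The genotypes overlapped. On clone means, WT was at 79.4 ± 6.30 and KO at 72.7 ± 1.92 (SD, n = 2 clones each), a difference of 6.68. The exact two-sided permutation test over the 6 assignments of clones gave p = 0.333, the smallest it can give, and 0.667 after Benjamini-Hochberg adjustment over the 3 promoters.

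At CEMP1, the percentiles were 92.7 to 96.7 in WT and 87.9 to 94.9 in KO, and at PDPK1 88.5 to 98.9 and 79.3 to 93.6. The ranges overlapped at both. The differences of clone means were 3.22 and 2.88, each with p = 0.667 in the same exact permutation test, and 0.667 adjusted. With 2 clones a side this test cannot reach a p under 0.333. At PDPK1 the direction turned without untreated KO_C5, to −0.683, and with the percentile of fold, to −1.96.

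The summit pileups over library background also overlapped between genotypes at these neighbours. They were 67.4 to 133 in WT and 72.3 to 97.1 in KO at ATP6V0C, and 148 to 264 and 118 to 232 at CEMP1. The local background did not overlap there. At ATP6V0C the WT libraries had 1.29 to 1.35 times their library background and the KO libraries 2.66 to 2.97 times theirs. At CEMP1 the ratios were 1.20 to 1.21 in WT and 3.05 to 3.21 in KO. At PDPK1 they overlapped, with 1.76 to 2.16 and 1.91 to 2.04. The medians over regions found in all 8 libraries were also apart, at 1.64 to 1.73 in WT and 2.99 to 3.10 in KO. The separation is thus not particular to these promoters, and the share of regions that show it was not counted.

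**Figure D4:**
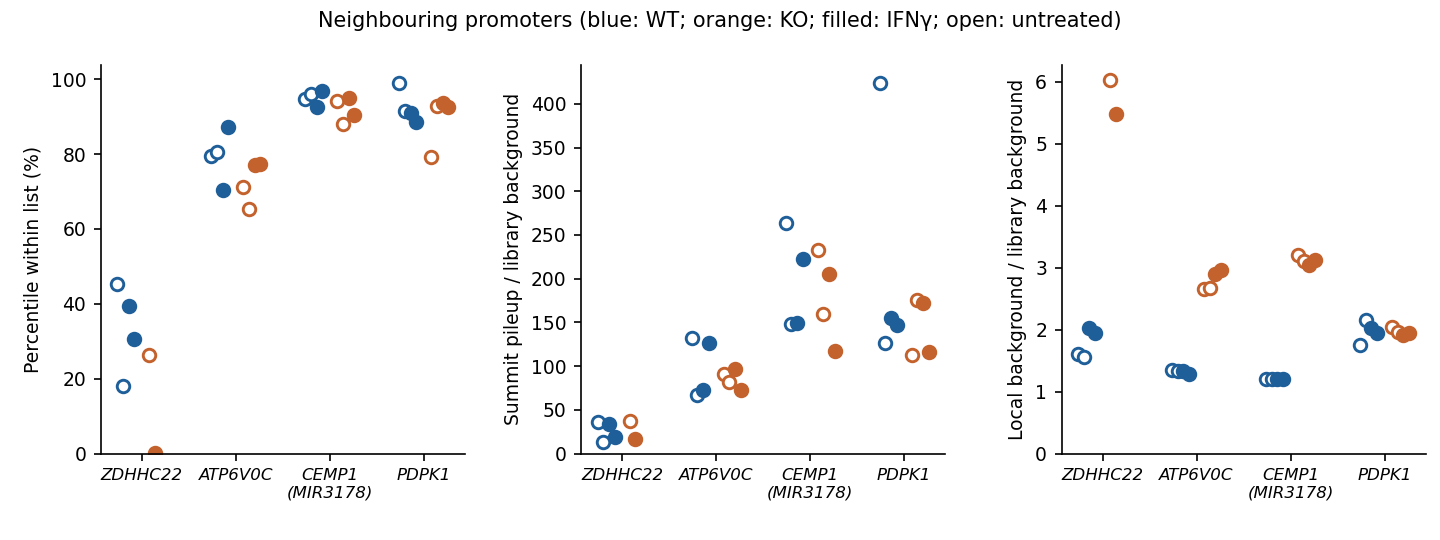
Percentile within the list (left, %), summit pileup over library background (middle) and local over library background (right) at 4 neighbouring promoters, with blue WT and orange KO points, open for untreated and filled for IFNγ. Percentiles and pileups of WT and KO overlap at ATP6V0C, CEMP1 and PDPK1, while the local background lies higher at ATP6V0C and CEMP1 in all 4 KO libraries and at ZDHHC22 in the 2 of KO_C5, the only KO libraries with a peak there.

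The choice of genes required a peak in all 4 WT libraries, so promoters listed only with or only without IFNγ were left out beforehand. Within WT, the strength of the listed peaks was compared by IFNγ. The mean percentile with IFNγ minus that without was 7.37 at TMEM63C, −6.12 at CHST14 and 5.56 at AMDHD2. In exact two-sided permutation tests over the 6 assignments of the 4 WT libraries, p was 1, 0.667 and 0.667, and 1 for each after adjustment over the 3 genes. With 2 libraries against 2, p cannot fall below 0.333. The clones moved in opposite directions at TMEM63C, with −2.40 in WT_4 and 17.1 in WT_5, and at CHST14, with −14.5 and 2.31. At AMDHD2 both differences were positive, 2.88 and 8.25. Leaving out 1 library turned each direction: TMEM63C gave −8.09 without WT_5 with IFNγ, CHST14 gave 0.621 without WT_4 with IFNγ, and AMDHD2 gave −1.86 without untreated WT_5. An effect of IFNγ on the strength of these peaks was not detectable in this design, and gain or loss of a peak could not appear.

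At the neighbours open in all 8 libraries, the change with IFNγ was 3.98 at ATP6V0C, 0.438 at CEMP1 and 0.779 at PDPK1. The exact permutation test over the 70 assignments of 8 libraries gave p = 0.514, 0.8286 and 0.857, and 0.857 adjusted for each. This test leaves out the pairing of libraries by clone. With the clone as a block, exact sign changes gave p = 0.5 at ATP6V0C and 0.625 at CEMP1, and no lower value at PDPK1. All 3 changes turned negative in lists of equal length, to −0.946, −1.44 and −2.51. The CEMP1 value was −1.32 without untreated KO_D2 and −0.585 without WT_5 with IFNγ, and the PDPK1 value −2.98 without untreated KO_C5. The difference between genotypes in this change was largest in size at PDPK1, where the mean was −5.48 in WT and 7.04 in KO, with p = 0.333 in an exact permutation test of the clones. By clone it was −8.03 in WT_4, −2.93 in WT_5, 14.3 in KO_C5 and −0.193 in KO_D2, so the KO mean rested on KO_C5, whose untreated library was the lowest of all 8.

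Among the 47 protein-coding genes with the same pattern, ordered by their mean WT percentile, TMEM63C ranked 2, CHST14 ranked 3 and AMDHD2 ranked 5. FOXA3, a pioneer factor of liver, had the highest mean, 62.6, but its values split by clone, with 34.1 and 20.5 in WT_4 and 97.8 and 98.1 in WT_5. BRSK1, a neuronal kinase, ranked between the 3 genes and was even over libraries, at 46.6 to 56.7. The next were MINDY4, C1QTNF1, NUDT12, ZNF483, NMUR1, MRS2, SQOR and PLEKHA6, with single values from 18.9 to 55.7. The lowest were NPY5R, ANO1 and EPPK1, the last with 1.11 to 11.9.

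The median of the mean percentile was 28.9 over the 47 genes, against 79.1 over the 10217 genes with a peak in all 8 libraries and 44.8 over the 999 genes with a peak in all 4 WT and 1 to 3 KO libraries. Just outside the pattern were 79 genes with a peak in all 4 WT and 1 KO library and 108 with 3 WT peaks and no KO peak. From each of these sets, the 3 genes that ranked first by mean WT percentile are given. NADK, a kinase that makes NADP, had WT values of 46.8 to 60.3 and 1 KO peak, at 49.2 in KO_D2 with IFNγ. ADGB and SLC39A4 also had 1 KO peak each, at 36.5 and 30.3. GRM4, GLUL and ZDHHC11B had 3 WT peaks and no KO peak, at 49.7 to 55.3, 19.5 to 62.3 and 36.7 to 51.6.

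**Figure D5:**
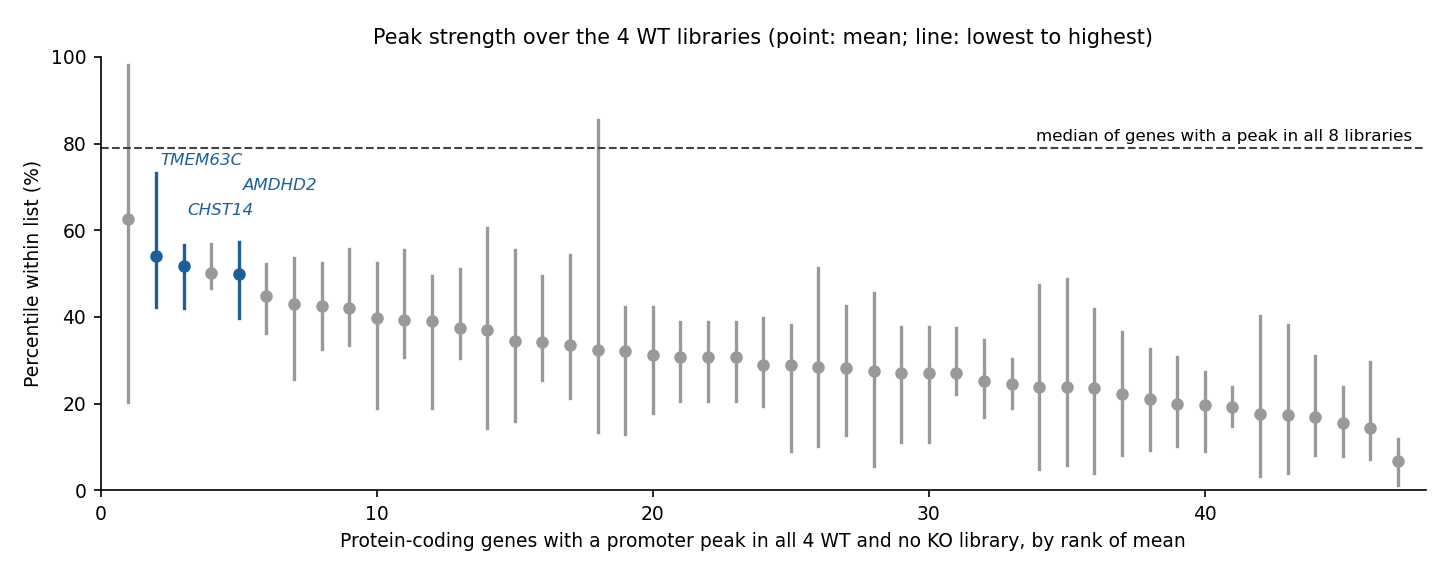
Percentile within the list (vertical axis, %) over the 4 WT libraries for the 47 genes with a promoter peak in all 4 WT and no KO library, ranked by mean (horizontal axis), with points for means, lines from the lowest to the highest library, and a dashed line at 79.1, the median mean of genes with a peak in all 8. The 3 genes, in blue, lie at ranks 2, 3 and 5, below the dashed line.

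Relatives and pathway partners of the 3 genes were read against all 19970 protein-coding genes, of which 51.2% had a peak in all 8 libraries and 4.27% had at least 2 more WT than KO libraries. Of 9 genes for mechanically gated channels, 6, or 66.7%, had a peak in all 8, and 2, or 22.2%, had at least 2 more WT libraries. The WT clones had a mean of 7.25 ± 0.354 of these promoters with a peak and the KO clones 6.25 ± 0.354 (SD, n = 2). That difference of 1 had p = 0.333 in the exact permutation test of clones and 0.5 adjusted over 3 lists. KCNK10, a stretch-sensitive potassium channel, was listed in 3 WT and 1 KO library, KCNK4, its relative, in 2 WT libraries at 2.57 and 11.7, and KCNK2 in none. The family members TMEM63A and TMEM63B, named after their values were seen, had peaks in all 8, at 45.1 to 86.4 and 80.3 to 94.3.

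Of 24 genes of chondroitin and dermatan sulfate synthesis and its core proteins, 16, or 66.7%, had a peak in all 8 libraries and none differed by 2 or more libraries between genotypes. Decorin (DCN), versican (VCAN) and the sulfotransferase gene CHST7 had none in any library. DSE, the epimerase gene whose product makes dermatan sulfate ahead of CHST14, was chosen after its values were seen and had values of 42.4 to 83.3 in WT and 45.2 to 69.8 in KO. The list difference was 0.75 promoters, with p = 0.333 in the exact permutation test and 0.5 adjusted, and it was −0.75 in lists of equal length.

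Of 14 genes of amino sugar metabolism, 12, or 85.7%, had a peak in all 8 libraries, none differed by 2 or more libraries, and RENBP had none. The list difference was −0.25 promoters, with p = 1 in the exact permutation test. With IFNγ the counts of the 3 lists changed by 0.5, −0.25 and 0.25 promoters, with p = 0.657, 1 and 1 in the exact permutation test over libraries and 1 adjusted for each. Over all protein-coding genes, 852 had at least 2 more WT than KO libraries and 107 the reverse.

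The labelled cell type was compared with marker promoters. Of 6 osteoblast lineage markers, RUNX2 and SP7 had a peak in all 8 libraries, which is 33.3% against 51.2% of all genes. COL1A1 had one in 4 WT and 3 KO libraries, SPARC in 2 and 3, ALPL in 2 and 2, and COL1A2 in none. Of 10 markers of other cell types, 6, or 60%, had no peak in any library, against 27.8% of all protein-coding genes. EPCAM alone, or 10%, had one in all 8, against 51.2% of all genes. GFAP had one in 3 WT and 1 KO, and RBFOX3 in 3 and 2. The ZBTB48 promoter itself had a peak in all 8, at 64.0 to 95.3, so the peak lists do not check the knockout. MTFP1, a ZBTB48 target named in the study, had a peak in 3 WT and 0 KO libraries.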

How the data were processed

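FAIRE-seq peak lists of 8 U2OS libraries were used, grouped by the genotype, treatment and clone labels. Per the labels and methods, the authors trimmed reads with Trimmomatic, mapped them to GRCh38 with Bowtie2 2.2.5, removed alignments of mapping quality under 30 with SAMtools 1.14, and called peaks per library with MACS2 2.2.7.1. The control used for peak calling is not given in the sources used here. In the deposited lists, the authors' fold enrichment is the ratio of summit pileup to local background, and the −log10 p and −log10 q values are those of MACS2. The authors' integer score column was not used. Total reads are not in the lists, so the depth is unknown, and no reads were counted at places without a peak.

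Peaks on chromosomes 1 to 22 and X were kept and ranked within each list by −log10 p. Regions were peaks joined over libraries by at least 1 bp. A promoter was 500 bp on either side of a GENCODE release 44 start site, and its value was that of the strongest peak overlapping it. Summit pileup and local background were solved from fold and −log10 p, and 100% of peaks gave whole pileups within 0.01 of −log10 p. The code was tested on simulated data. Genotype was tested on clone means, treatment on libraries, by exact two-sided permutation. Replicate numbers pair an untreated with an IFNγ library by the clone label. Replicate differences of the untreated and IFNγ libraries correlated at 0.594 in WT and 0.408 in KO over 11551 regions, as a description, and the clone block is an alternative.

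The 3 genes, the gene lists and the motifs except the E-box were chosen with earlier results of these data known. Named were the 3 genes, protein-coding genes starting within their windows, non-coding ones there only where a peak lay at no protein-coding start, the 10 strongest and 3 weakest other genes of the same pattern, 3 on each side of its edge, and listed genes that differed by 2 or more libraries or had no peak. Other names are marked as chosen after their values were seen. Alternatives were lists of equal length, −log10 q of at least 3, fold of at least 4, overlap of 0.5, summit windows of 150 bp on either side, promoter windows of 200 and 1000 bp, percentiles of fold and, chosen after seeing the data, of pileup, the clone block, and leaving out each library. The nearest downstream promoter of CHST14 and 1 marker gene are not reported here. Python 3.11.15, NumPy 2.4.6, SciPy 1.17.1, pandas 2.3.3 and Matplotlib 3.10.9 were used.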

Additional observations from a re-analysis of the deposited data

Results flagged for a closer look

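Of 36 sets of 4 values, from the WT or KO libraries at the 3 genes and at 3 neighbours, 6 had a library far from the others by Dixon's criterion. The criterion flags about 1 in 20 sets of independent values. Here each clone gave 2 libraries, the measures of a promoter are related, and some sets use the peaks that chose the genes. The number flagged is therefore not set against that rate. At the TMEM63C promoter, WT_5 with IFNγ stood apart in fold, at 21.3, and in width, at 1026 bp. At the PDPK1 promoter, untreated WT_4 stood apart in fold, at 130, and in pileup over the library background, at 424, and untreated KO_C5 was low in percentile, at 79.3. At ATP6V0C, untreated WT_4 had the widest peak, at 976 bp. The causes were not tested.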

How the results depend on the processing

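Of 244 alternative values of 19 results, 16 changed sign and 22 moved. The lowest p of any was 0.143. Most of these tests cannot reach 0.05 whatever the values, so their p-values say nothing about stability. With lists of equal length there were 26 WT-only regions, AMDHD2 had 2 libraries more in WT, and the IFNγ change was −0.946 at ATP6V0C, −1.44 at CEMP1 and −2.51 at PDPK1. The PDPK1 genotype difference was then −0.0112, and the list differences were 0.25 for amino sugar genes and −0.75 for chondroitin and dermatan sulfate genes by genotype and −0.75 for channel genes by IFNγ. These follow the removal of weaker peaks from the longer lists. The chondroitin and dermatan list change with IFNγ was 0 with −log10 q of at least 3 and with 200-bp windows, and the PDPK1 genotype difference was −1.96 with percentiles of fold. The cause was not tested.

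Leaving out each library gave 121 to 280 WT-only regions and 3 to 4 more WT libraries at each of the 3 genes, as fewer libraries were required. It gave IFNγ changes of −8.09 to 22.8 at TMEM63C, −12.9 to 0.621 at CHST14, −1.86 to 12.98 at AMDHD2, −1.32 to 1.55 at CEMP1, −2.98 to 3.55 at PDPK1 and −0.5 to 0.25 promoters for chondroitin and dermatan genes. Genotype differences were −0.683 to 6.45 at PDPK1 and −0.5 to 0 promoters for amino sugar genes. With the replicate block of clones, the IFNγ change of 7.37 at TMEM63C had p = 1, −6.12 at CHST14 p = 1 and 5.56 at AMDHD2 p = 0.5 by exact sign changes, the smallest p for 2 clones, and it changed no other call, as no blocked p can fall below 0.125 here. Windows of 200 bp gave no value at CEMP1, and lists of equal length none for AMDHD2 with IFNγ.

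Peak lists hold no reads outside peaks, so a missing KO peak is a call below a threshold and not a measured level. Each genotype rests on 2 clones, whose differences cannot be told apart from the knockout.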
